A study of Mus musculus with 6 samples.

Results

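The aryl hydrocarbon receptor axis was read from 7 genes of the 25075 symbols measured in sorted small-intestinal ILC3s. These were the receptor gene Ahr, its dimerisation partner Arnt, the repressor Ahrr and the classical targets Cyp1a1, Cyp1b1, Tiparp and Nqo1. The genes were taken by symbol from a list chosen with earlier results of these data known, and all 7 were found in the table. A low-count filter passed 15261 genes, among them 6 of the 7; Cyp1a1 did not pass. The 6 libraries came from mice on a B6 background that all carried floxed Batf alleles (Batffl/fl). The control group had no Cre (PLZF-Cre-, 3 libraries) and the Batf-deficient group carried the Cre (PLZF-Cre+, 3 libraries). PLZF, the factor whose gene drives this Cre, is expressed in innate lymphoid precursors and in some T cells, so deletion need not be limited to ILC3s. Each library was made by Smart-seq2 from 2 ng of RNA of 2000 cells gated as Lin-CD90.2+KLRG1-. The submitters describe the replicates as biological, without saying which animals they came from, and p-values measure the spread between these libraries.

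The aryl hydrocarbon receptor is a cytosolic sensor of dietary indoles, tryptophan metabolites and environmental aromatic compounds. In the resting state it is held in a complex with HSP90, p23 and other chaperones; on binding a ligand it enters the nucleus, pairs with ARNT and activates genes with a xenobiotic response element. AHRR competes with the receptor for ARNT, CYP1A1 and CYP1B1 oxidise ligands, and TIPARP is a mono-ADP-ribosyltransferase that limits receptor activity, so that several targets act as negative feedback. Intestinal ILC3s depend on the receptor for their maintenance and for IL-22, while epithelial cells use the same targets for detoxification. BATF is a basic leucine zipper factor of the AP-1 family.

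Upstream sequence is shown for the targets whose levels are described below, as context for the elements through which the receptor acts. RefSeq promoter windows (GRCm38.p6, the patch release of the mm10 assembly) were matched for 6 of the 7 members, all but Ahr. In the 250 bases before the annotated start, read on the strand of the gene, capitals mark the AHR-ARNT core GCGTG or its complement on the other strand. The windows are chr13:74292332-74292581 (minus strand) for Ahrr, chr9:57697363-57697612 (plus) for Cyp1a1, chr17:79715062-79715311 (minus) for Cyp1b1 and chr3:65528197-65528446 (plus) for Tiparp.
Ahrr: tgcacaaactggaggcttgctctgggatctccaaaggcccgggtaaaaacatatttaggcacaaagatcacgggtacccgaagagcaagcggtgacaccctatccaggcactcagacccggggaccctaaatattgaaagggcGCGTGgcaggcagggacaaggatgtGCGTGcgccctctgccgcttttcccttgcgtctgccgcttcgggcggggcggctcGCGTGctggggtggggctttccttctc
Cyp1a1: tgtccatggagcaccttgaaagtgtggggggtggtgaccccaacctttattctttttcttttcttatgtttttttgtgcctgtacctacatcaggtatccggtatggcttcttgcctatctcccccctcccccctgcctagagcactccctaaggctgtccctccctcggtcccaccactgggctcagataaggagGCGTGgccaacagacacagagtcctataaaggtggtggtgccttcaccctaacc
Cyp1b1: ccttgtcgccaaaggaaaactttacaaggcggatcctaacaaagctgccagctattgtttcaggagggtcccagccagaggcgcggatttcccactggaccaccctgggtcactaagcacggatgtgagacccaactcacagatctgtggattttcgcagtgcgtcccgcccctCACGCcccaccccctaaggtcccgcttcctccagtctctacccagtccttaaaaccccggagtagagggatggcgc
Tiparp: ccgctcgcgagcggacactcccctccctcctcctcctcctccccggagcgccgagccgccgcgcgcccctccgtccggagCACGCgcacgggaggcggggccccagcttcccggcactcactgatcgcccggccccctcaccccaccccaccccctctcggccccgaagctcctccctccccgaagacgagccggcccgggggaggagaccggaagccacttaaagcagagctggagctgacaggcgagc
Ahrr held 3 cores, at -107, -82 and -27 from the start, and the last of them extended to TNGCGTG. Cyp1a1, Cyp1b1, Tiparp and Arnt held 1 core each, at -54, -76, -170 and -29. Nqo1 held none of the motifs searched. Among 32851 RefSeq windows of this length, 28.2% held the core on either strand and 4.10% held TNGCGTG, which contains the core. The core is also a form of the hypoxia response element, so the same letters serve more than 1 factor. The NRF2 antioxidant motif TGACNNNGC was in 10.2% of windows and, among the members, only in that of Arnt, with 2 matches. The AP-1 motif TGANTCA was in 6.75% of windows and in none of the 6. These matches are descriptions of letters and not binding sites, and the absence of a motif refers to this window only.

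**Figure D1:**
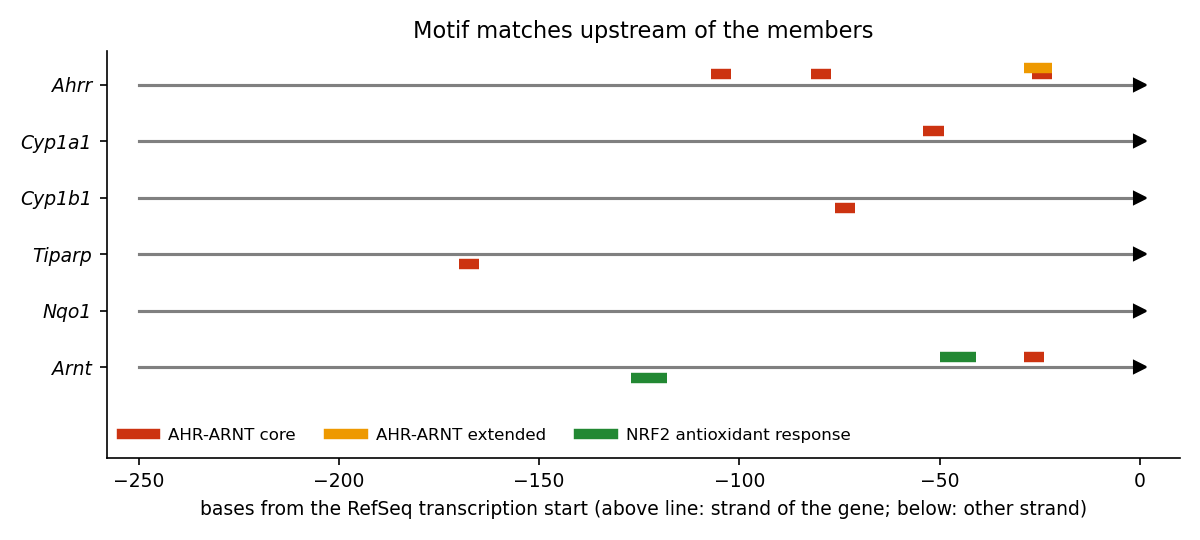
Matches of the AHR-ARNT core, its extended form and the NRF2 motif in the 250 bases before the RefSeq start of 6 members, plotted as distance from the start in bases; matches above a line lie on the strand of the gene and those below on the other. Ahrr has 3 cores within 107 bases of its start, Arnt, Cyp1a1, Cyp1b1 and Tiparp have 1 each, and Nqo1 has none.

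The labels and the composition of the libraries bear on every value that follows. Batf was at 15.2, 15.3 and 18.95 CPM in the libraries labelled control and at 38.3, 41.4 and 41.3 CPM in those labelled Batf-deficient (log2 fold change 1.29, edgeR adjusted p = 1.70e-05), which goes against the label on this scale. Per 100000 counts of the lymphocyte panel described below it was at 1418, 1435 and 1739 against 628, 687 and 722, without overlap. There the log2 fold change was -1.17 (edgeR adjusted p = 2.78e-05), lower as the label says. On that scale 87.3% of all genes were called lower and the median log2 fold change was -2.44, so this direction cannot check the label. Counts per gene do not show whether the floxed exons were read. Total counts ran from 8228513 to 17334207 per library, and 3 counts corresponded to 0.156 to 0.426 CPM. Genes of the pancreatic acinus took 10% to 10.3% of counts in the libraries labelled control and 0.000608% to 0.000742% in those labelled Batf-deficient, where 3 of 16 (Amy2b, Ctrc, Pnliprp1) had no count. Intestinal epithelial markers took 1.54% to 1.62% against 0.0327% to 0.0394%, with 13 of 14 lower and none at 0. Markers of the sorted cells were present throughout: ILC3 genes took 0.144% to 0.166% against 0.867% to 0.940% of counts, with 9 of 9 higher. T cell genes, which the lineage gate should remove, took 0.0250% to 0.0256% against 0.148% to 0.161%. Klrg1, which the sort gated against, was at 1.41 to 3.12 CPM and 8.61 to 10.7 CPM. The list of 6 ILC2 genes that holds Klrg1 went the other way in sum, at 0.0556% to 0.0614% against 0.0170% to 0.0186% of counts. Of the 5 that passed the filter, 2 were higher, 2 lower and 1 was not called.

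Fold changes are therefore given on several scales, all as labelled Batf-deficient over labelled control. The main scale is CPM with TMM factors, which sets the typical gene to be equal between libraries (median log2 fold change of all genes 0.02). A second scale divides by the summed counts of 15 genes shared by ILCs and T cells (such as Il7r, Thy1, Bcl11b and Lck), a panel chosen with earlier results of these data known. The panel took 0.121% to 0.125% of counts in the libraries labelled control and 0.515% to 0.522% in the others, so this scale moves the median of all genes by -2.46. In bulk RNA fewer cells of a type and less RNA per cell cannot be told apart on either scale. At a threshold of 0.05 on the adjusted p, edgeR called 64.4% of the 15261 genes with TMM factors (30.2% higher and 34.1% lower) and 89.2% with the panel (1.94% higher and 87.3% lower). With library totals alone it called 62.5% (20% higher and 42.5% lower).

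Of the 6 members tested, with TMM factors or library totals, Ahr, Arnt, Ahrr and Tiparp were higher in the libraries labelled Batf-deficient while Nqo1 and Cyp1b1 were lower, and all 6 were lower with panel scaling. All 6 were called on each scale, where the share of all genes called was 64.4%, 62.5% and 89.2%. The groups did not overlap for any of the 6 with TMM factors, as was true of 71.2% of all genes (34.6% higher and 36.5% lower). Direction thus depended on the scale for the receptor, partner, repressor and Tiparp, and did not for Nqo1 and Cyp1b1. Nqo1 and Cyp1b1 passed the filter only through the libraries labelled control, so only a lower call was open to them.

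**Figure D2:**
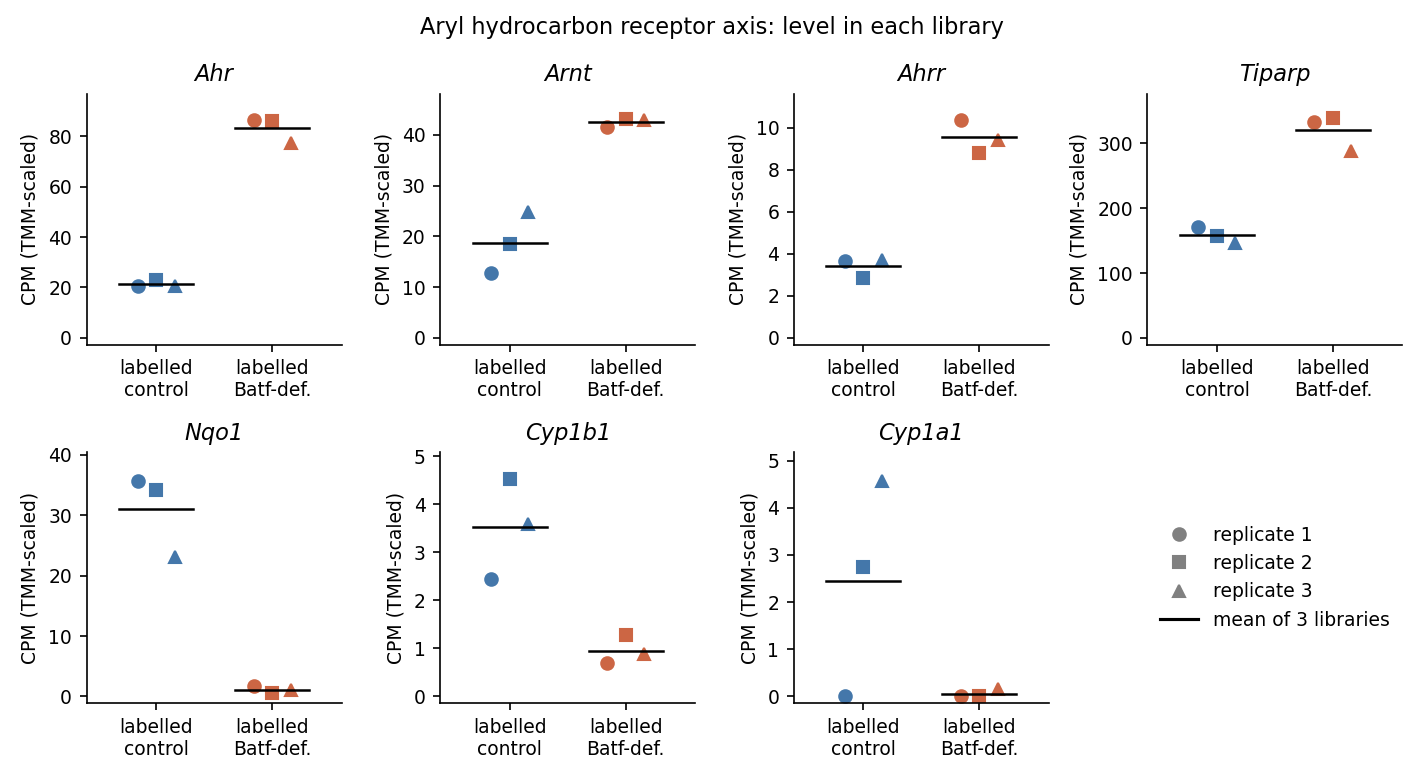
Level of each member in every library, as CPM with TMM factors on linear axes that include 0; symbols are replicates and bars the mean of 3 libraries. Ahr, Arnt, Ahrr and Tiparp lie higher in the libraries labelled Batf-deficient on this scale (lower with panel scaling), Nqo1 and Cyp1b1 lie lower, and Cyp1a1 is at 0 in 1 library labelled control and in 2 labelled Batf-deficient.

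Ahr, the receptor (chromosome 12, 35497974 to 35535038, minus strand, mm10), was at 20.5, 23.1 and 20.7 CPM in the libraries labelled control and at 86.5, 85.97 and 77.4 CPM in those labelled Batf-deficient. Every library of the second group was thus above every library of the first, and each group was narrow. Group means were 21.4 ± 1.45 and 83.3 ± 5.08 CPM (SD, n = 3 each), a 3.88-fold difference (log2 fold change 1.96, SE 0.12, edgeR adjusted p = 5.19e-08). Of all genes tested, 91.8% had a lower log2 fold change than Ahr. Per 100000 panel counts the order turned, with 1912, 2158 and 1896 Ahr counts in the libraries labelled control and 1420, 1428 and 1355 in the others (log2 fold change -0.51, edgeR adjusted p = 0.00459). Relative to lymphocyte transcripts the groups again did not overlap, with the libraries labelled control now the higher. Exons of Ahr overlap Gm48236 on the opposite strand, and the strand setting of the counting is not given in the sources used here.

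Counts of Ahr were also set against single genes of the sorted cells within each library, a ratio that no scaling factor changes. Per 100 counts of Il7r, the IL-7 receptor gene of all helper-like ILCs, there were 14.6, 13.6 and 12.1 counts of Ahr in the libraries labelled control and 8.79, 8.81 and 11.7 in those labelled Batf-deficient. Against Thy1, which encodes the CD90 used in the sort, the values were 51.5, 48.7 and 41.5 and then 19.2, 20.7 and 15.7. Ahr was 1.38-fold lower relative to Il7r and 2.56-fold lower relative to Thy1 in the libraries labelled Batf-deficient, without overlap (exact permutation p = 0.1 for each, the smallest that 3 against 3 libraries allow; 0.15 adjusted over 3 ratios computed, of which 1 is not reported here). Of all other genes tested, 93.9% had a lower mean relative to Il7r and 85.1% were lower without overlap, and 97.3% and 92.2% relative to Thy1. The size of the difference in Ahr therefore varied with the lymphocyte gene it was read against, and these ratios do not speak for other genes of the sorted cells.

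Arnt encodes the constitutive partner of the receptor and of the hypoxia-inducible factors (chromosome 3, 95434388 to 95497240, plus strand). Its levels were 12.7, 18.4 and 24.7 CPM in the libraries labelled control and 41.6, 43.1 and 42.9 CPM in those labelled Batf-deficient. The first group spread widely around its mean while the second was tight (18.6 ± 5.998 and 42.5 ± 0.812 CPM). The log2 fold change was 1.18 (SE 0.21, edgeR adjusted p = 0.000384) with TMM factors and -1.28 with the panel (edgeR adjusted p = 7.73e-05). Within libraries there were 62.2, 79.9 and 119.6 counts of Arnt per 100 of Ahr in the libraries labelled control, against 48.1, 50.1 and 55.4. The transcript of the partner was thus 1.65-fold lower relative to that of the receptor in the libraries labelled Batf-deficient, without overlap (exact permutation p = 0.1; 0.12 adjusted over the 6 ratios to Ahr). Such a difference was common: of all other genes tested, 90.5% had a lower mean relative to Ahr and 80.7% were lower without overlap.

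Ahrr, the repressor that is itself a receptor target (chromosome 13, 74211118 to 74292331, minus strand), was low in every library. It had 39, 50 and 71 counts (3.68, 2.86 and 3.69 CPM) in the libraries labelled control and 75, 62 and 117 counts (10.4, 8.81 and 9.42 CPM) in those labelled Batf-deficient. The groups were well apart on this scale, by 1.48 on the log2 scale (SE 0.30, edgeR adjusted p = 0.000984), and turned to -0.97 with the panel (edgeR adjusted p = 0.0189). Per 100 counts of Ahr there were 17.97, 12.4 and 17.8 counts of Ahrr in the libraries labelled control and 12.02, 10.3 and 12.2 in the others. This ratio was 1.39-fold lower in the libraries labelled Batf-deficient (exact permutation p = 0.1; 0.12 adjusted), and control replicate 2 lay just above the highest of them. The 3 cores printed above lie upstream of this gene.

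Tiparp, the ADP-ribosyltransferase target (chromosome 3, 65528410 to 65555518, plus strand), was the most abundant member per length in every library. It was at 171, 156.9 and 146 CPM in the libraries labelled control and at 334, 339.5 and 288 CPM in those labelled Batf-deficient. With TMM factors it was 2.03-fold higher in the latter (log2 fold change 1.02, SE 0.11, edgeR adjusted p = 3.97e-06). Relative to the panel it was 2.73-fold lower, with 16000, 14670 and 13400 counts per 100000 panel counts against 5481, 5637 and 5037 (edgeR adjusted p = 1.56e-08). For each 100 counts of Ahr there were 837, 680 and 707 counts of Tiparp in the libraries labelled control and 386, 395 and 372 in the others. The target was thus 1.92-fold lower relative to the receptor, with a narrow spread in both groups (exact permutation p = 0.1; 0.12 adjusted). Its exons overlap the gene 4931440P22Rik on the opposite strand, which had 34 to 64 counts per library.

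Nqo1 encodes a quinone reductase that both the receptor and NRF2 induce (chromosome 8, 107388225 to 107403206, minus strand). It had 379, 596 and 445 counts in the libraries labelled control and 12, 4 and 14 in those labelled Batf-deficient, or 35.7, 34.1 and 23.1 CPM against 1.66, 0.568 and 1.13 CPM. Nqo1 was thus a mid-level transcript in the first group and near the limit of detection in the second. It was 27.3-fold lower with TMM factors (log2 fold change -4.77, SE 0.33, edgeR adjusted p = 1.13e-07) and 148-fold lower with the panel. Of all genes tested, 6.07% had a more negative log2 fold change. Nqo1 counts per 100 of Ahr were 175, 148 and 112 against 1.92, 0.661 and 1.46, the widest separation among the ratios to Ahr whose groups did not overlap (109-fold, exact permutation p = 0.1; 0.12 adjusted).

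Cyp1b1, a ligand-oxidising cytochrome P450 (chromosome 17, 79701537 to 79715061, minus strand), followed in the same direction at lower counts. It had 26, 79 and 69 counts (2.45, 4.52 and 3.58 CPM) in the libraries labelled control and 5, 9 and 11 counts (0.693, 1.28 and 0.885 CPM) in those labelled Batf-deficient. The groups did not overlap, but the few counts leave a wide interval: the log2 fold change was -1.89 with a 95% interval of -3.01 to -0.77 (edgeR adjusted p = 0.00661). With the panel it was -4.33. Relative to Ahr it was 13.6-fold lower in the libraries labelled Batf-deficient (exact permutation p = 0.1; 0.12 adjusted).

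Cyp1a1, the cytochrome P450 most used as a readout of receptor activity (chromosome 9, 57687928 to 57703824, plus strand), had 0, 48 and 88 counts in the libraries labelled control and 0, 0 and 2 in those labelled Batf-deficient. Control replicate 1, which had 9080012 counts in all, gave none, which allows up to 0.283 CPM, while replicates 2 and 3 were at 2.75 and 4.57 CPM. The groups therefore overlapped at 0. Over the group totals the libraries labelled control had 38.3 times the level of the others (95% counting interval 10.4 to 320), an interval that covers counting error only and not the spread between libraries. With no low-count filter the edgeR adjusted p was 0.0173. Control replicate 1 was the only library labelled control without a count. Leaving it out let the gene pass the filter (edgeR adjusted p = 0.000469), a value that follows from which library was removed. The ratio of Cyp1a1 to Ahr then moved from -5.04 to -7.09 on the log2 scale (exact permutation p = 0.2 over all 6 libraries, and 0.2 adjusted). Leaving out control replicate 2 or 3 gave -4.24 or -3.80, so the size of this difference rests on single libraries.

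Markers of several kinds of cells outside the sort moved in the same direction as Nqo1, Cyp1b1 and Cyp1a1. T cell markers, also outside the sort, moved the other way, with 7 of 7 higher. Beside the epithelial and acinar shares given above, stromal markers took 0.105% to 0.113% of counts in the libraries labelled control and 0.00514% to 0.00599% in the others, with 7 of 8 lower and none at 0. Endothelial markers took 0.0238% to 0.0263% against 0.00752% to 0.0095%, with 5 of 6 lower, 1 higher and none at 0. Macrophage and dendritic cell markers took 0.0959% to 0.108% against 0.00571% to 0.00641%, with 8 of 9 lower and none at 0. B and plasma cell markers took 1.41% to 1.43% against 0.0840% to 0.0944%, with 7 of 8 lower and none at 0. The part of these cells in the levels of these 3 targets was not tested. Within the libraries labelled control the epithelial share was nearly the same in replicate 1, where Cyp1a1 had no count (1.54%), as in replicates 2 and 3 (1.54% and 1.62%). Which cells held Cyp1a1 was not tested, and 3 libraries with so few counts of it cannot tell.

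**Figure D3:**
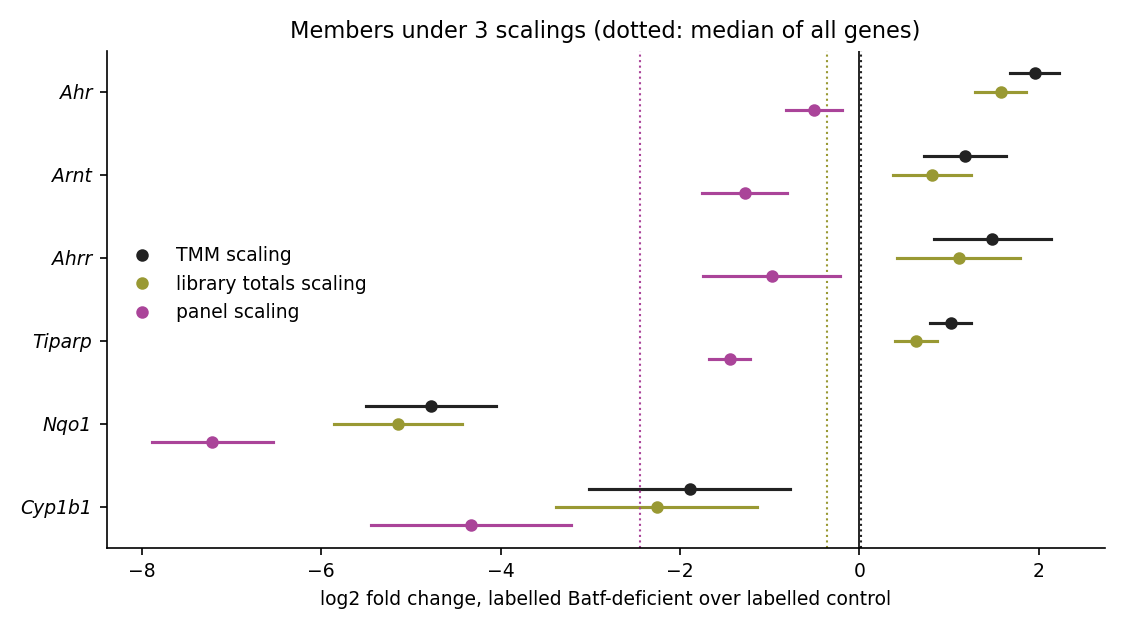
Log2 fold change of the 6 members tested with 95% intervals from the edgeR fit, under TMM factors, library totals and panel scaling; dotted lines mark the median of all genes on each scale. The intervals of Ahr, Arnt, Ahrr and Tiparp lie above 0 with TMM factors and library totals and below 0 with the panel, while those of Nqo1 and Cyp1b1 lie below 0 on all 3.

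Levels of different members were compared per kilobase of annotated coding-transcript exons (GENCODE M21). In the libraries labelled control the order of the mean CPM per kilobase was Tiparp (37.7), Nqo1 (19.95), Ahr and Arnt (3.86 each), Cyp1a1 (0.875), Ahrr (0.717) and Cyp1b1 (0.676). Ahr and Arnt overlapped across these libraries, as did Cyp1a1, Ahrr and Cyp1b1. In the libraries labelled Batf-deficient the order was Tiparp (76.5), Ahr (15.01), Arnt (8.80), Ahrr (2.01), Nqo1 (0.721), Cyp1b1 (0.183) and Cyp1a1 (0.0193), and no neighbours overlapped. The receptor therefore stood above its partner per length in 3 of 3 of these libraries, and in 2 of 3 of the libraries labelled control. Nqo1 moved from the second to the fifth place.

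**Figure D4:**
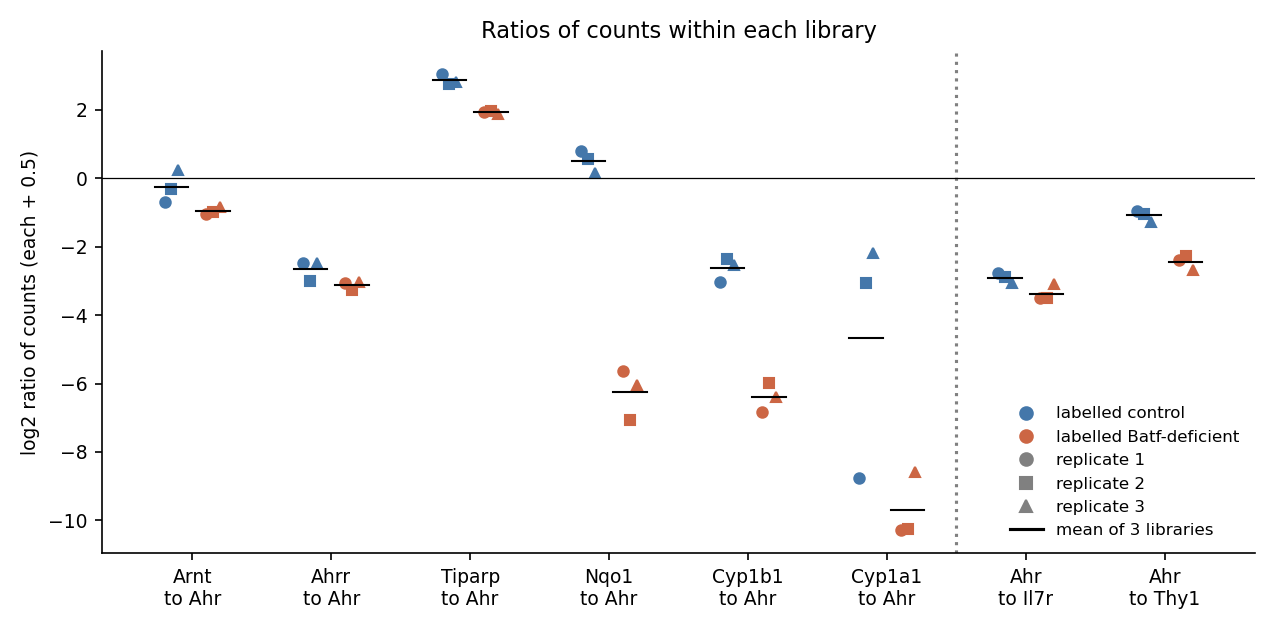
Log2 ratio of counts within each library (0.5 added to each count) for 6 members against Ahr, left of the dotted line, and for Ahr against Il7r and Thy1, right of it; symbols are replicates and bars the mean of 3 libraries. All 6 ratios to Ahr have a lower mean in the libraries labelled Batf-deficient, from -0.47 for Ahrr to -6.77 for Nqo1, as do 90.5% of all other genes tested, and the groups overlap, among the ratios plotted, for Cyp1a1 to Ahr only.

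Every other member thus had a lower mean relative to the receptor in the libraries labelled Batf-deficient, and 5 of the 6 ratios did not overlap between groups. Both counts are near the shares of all other genes, 90.5% and 80.7%, and say nothing particular about the members. None of these could pass a threshold of 0.05, since 0.1 is the smallest p that the design allows.

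Genes around the receptor were described by lists that were likewise chosen with earlier results known. The median log2 fold change of each list is set beside that of all genes tested (0.02 with TMM factors, -2.44 with the panel), and no list was tested as such. The cytosolic complex holds the receptor ready for ligand. Of its 4 genes listed 2 were higher, 1 lower and 1 not called (median 1.52, and -0.95 with the panel). Hsp90aa1, the inducible HSP90 chaperone, went from 344 ± 31.8 to 12570 ± 316 CPM (log2 fold change 5.19, edgeR adjusted p = 5.93e-12), and the constitutive Hsp90ab1 from 1207 ± 86.9 to 9304 ± 359 CPM (2.95). Both remained higher with the panel, at 2.73 and 0.49. Ptges3, which encodes p23 and was named after its values were seen, had 0.09 and did not pass the edgeR test (adjusted p = 0.701). Src, the tyrosine kinase gene that was the lower one and was also named after its values were seen, had -1.20, and -3.66 with the panel.

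Of 11 other bHLH-PAS factors and coactivators, 9 passed the filter, 5 were higher, 1 was lower and 3 were not called (median 1.37, and -1.09 with the panel). Epas1 and Hif1a, the hypoxia-inducible factors that share ARNT with the receptor, had log2 fold changes of 1.80 and 1.78 with TMM factors and of -0.67 and -0.69 with the panel. The coactivator gene Ncoa3 had 1.75 and -0.71. Ncoa1, the related coactivator gene that was lower and was named after its values were seen, had -0.68 and -3.14. Epas1, Hif1a and Ncoa3 had values between those of Arnt and Ahr on each scale.

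Other genes of the detoxification battery had the lowest median of the lists around the receptor. Of 11 listed, 10 were in the table and 8 passed the filter, of which 7 were lower and 1 higher (median -5.14). With Gsta2, which had 67 counts against 0, set at its bound, the median was -4.14, and -6.59 with the panel. Gsta2, Gsta1, Ugt1a7c, Ugt1a6a, Scin and Serpinb2 passed the filter only through the libraries labelled control, so only a lower call was open to them. Selenbp1 was the only lower gene with enough counts in both groups. It was named after its values were seen, as were Ugt1a6a, Scin and Serpinb2. The filter thus largely fixed this count and median, which say little about the list. Gsta1, a glutathione transferase with a near-identical paralog, had 2007, 4242 and 4956 counts in the libraries labelled control and 2, 2 and 8 in the others (log2 fold change -8.98, edgeR adjusted p = 3.74e-11). Ugt1a7c, a glucuronosyltransferase whose locus shares exons among several transcripts, was at 34.4 ± 7.65 and 0.641 ± 0.195 CPM (-5.66). The exception was Asb2, a ubiquitin ligase subunit. Its group means were 66.3 ± 1.53 and 484 ± 37.0 CPM, a difference of 2.87 on the log2 scale (edgeR adjusted p = 2.57e-10), and it remained higher with the panel, at 0.41 (edgeR adjusted p = 0.00380). Aldh3a1, an aldehyde dehydrogenase of the battery named after its values were seen, had 33 counts over the libraries labelled control and none in the others, at least 6.20-fold lower against a floor of 3 counts over the group. Gsta1 and the Ugt1a enzymes are abundant in intestinal epithelium, whose markers moved with them as given above; the part of these cells in the values was not tested.

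Genes that depend on the receptor in ILC3s moved the other way on the TMM scale. Of 7 genes listed 6 were higher, none was lower and 1 was not called, with a median of 2.64. With the panel 3 were higher, 2 were lower and the median was 0.18. Il22, the ILC3 cytokine, had 3.19 with TMM factors and 0.72 with the panel, and Kit, the stem cell factor receptor, 3.01 and 0.54. Notch1 had 2.43 and -0.04, the latter not past the edgeR test (adjusted p = 0.777). Bcl2, the survival gene and the member not called with TMM factors, was named after its values were seen: it had 0.10 (edgeR adjusted p = 0.492) and -2.37 with the panel. Il23r, an IL-23 receptor subunit gene likewise named after its values were seen, had 4.22 and 1.75, so that Il22, Kit and Il23r were higher on both scales. The receptor gene itself was lower with the panel. Il22, Kit and Il23r are also in the ILC3 marker list given above, where 9 of 9 were higher (median 2.88, and 0.41 with the panel). The panel genes themselves had a median of 2.44 with TMM factors. The part of the ILC3 share in these values was not tested.

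Tryptophan enzymes and transporters, some of which supply receptor ligands, showed no common direction with TMM factors. Of 13 listed, 12 were in the table and 9 passed the filter, of which 1 was higher, 4 lower and 4 not called (median -0.51), and all 9 were lower with the panel (median -2.97). Slc3a2, the heavy chain of the large amino acid transporter, had 1.53 and -0.93. Tph1, which makes serotonin from tryptophan in enterochromaffin and mast cells, had -3.08, and the kynurenine aminotransferase gene Kyat1 -1.65. Of the 4 lower genes, Tph1 and Ido1 passed the filter only through the libraries labelled control. Only a lower call was open to them, and Ido1 was named after its values were seen.

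Genes of the NRF2 pathway, to which Nqo1 also belongs as a target, were divided. Of 10, 1 was higher, 4 were lower and 5 were not called with TMM factors (median -0.18), and all 10 were lower with the panel (median -2.64). Gsr (glutathione reductase), Gclm (the modifier subunit of glutathione synthesis) and Srxn1 (sulfiredoxin) had -2.20, -3.02 and -1.26. Nfe2l2, which encodes NRF2, was at 120 ± 10.8 and 123.7 ± 4.71 CPM (0.04, edgeR adjusted p = 0.747), and at -2.42 with the panel. Hmox1 (heme oxygenase), the gene that was higher and was named after its values were seen, had 1.17 and -1.28 with the panel. None of these reached the -4.77 of Nqo1. Of 7 PARP relatives of Tiparp 4 were higher, 2 lower and 1 was not called (median 0.72, and -1.74 with the panel). Zc3hav1 (the antiviral protein ZAP), Parp1 (the main DNA repair enzyme of the family) and Parp10 (a mono-ADP-ribosyltransferase) had 1.31, 1.38 and 0.72. With the panel they had -1.15, -1.08 and -1.74. Parp12 and Parp14, the 2 lower relatives, were named after their values were seen. They had -1.54 and -0.93, and -3.99 and -3.39 with the panel. Tiparp had 1.02 with TMM factors.

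**Figure D5:**
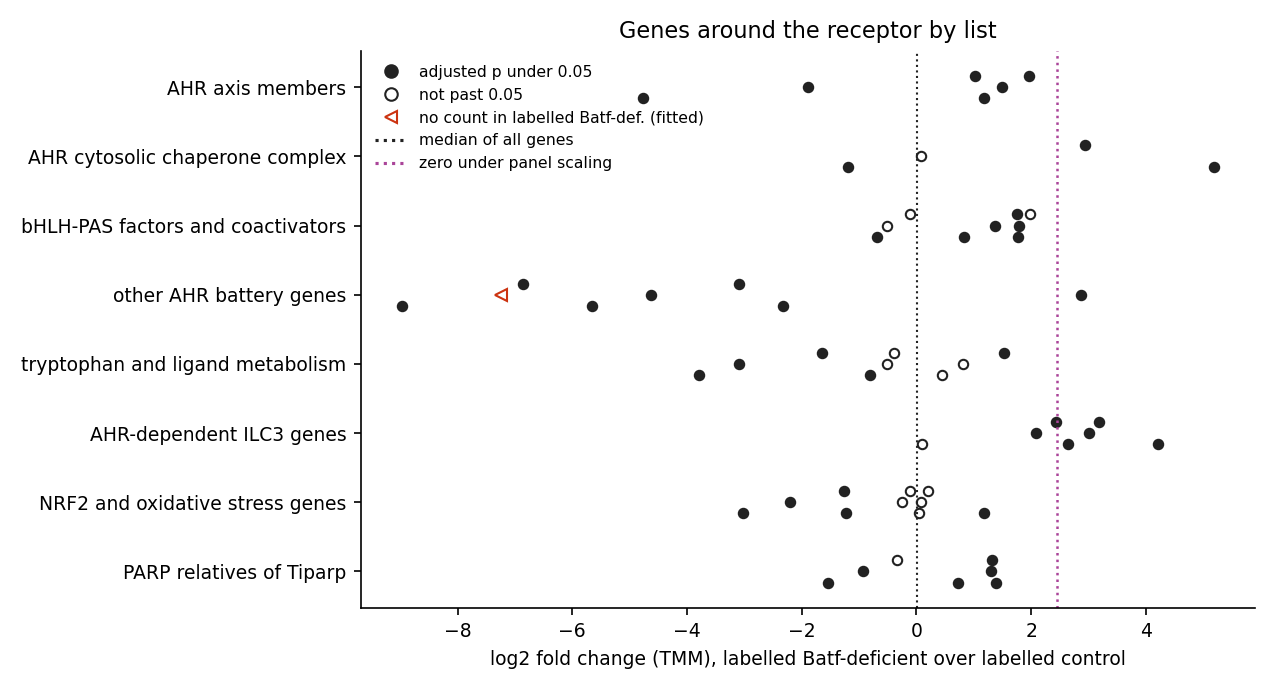
Log2 fold change with TMM factors of each gene that passed the filter, by list; filled points passed an adjusted p of 0.05, open points did not, and the triangle is Gsta2, whose fit rests on 67 counts against 0. The black dotted line is the median of all genes and the purple line shows where 0 falls with panel scaling. The other battery genes lie below 0 except Asb2, and all 7 AHR-dependent ILC3 genes lie above 0, with Bcl2 nearest to it at 0.10 and not called; with the panel only points to the right of the purple line are above 0.

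The genes whose profile was most like that of a member were found among 8529 others whose mean log2 CPM was 3 or more, by the root mean square difference of centred log2 CPM over the 6 libraries. For Ahr they were Enpp4, an ectonucleotide phosphodiesterase gene (difference 0.0533), and Rps7, a ribosomal protein gene (0.0547). For Arnt they were Pik3c3, the class III PI3-kinase gene (0.0712), and Dis3l2, an exonuclease gene (0.0772). Pik3c3 shared the uneven control values of Arnt, at 7.35, 12.5 and 14.9 CPM. For Tiparp they were Dennd4a (0.0289) and Dazap2 (0.0322). With 6 libraries in 2 separate groups this likeness mostly restates a similar log2 fold change, 1.97 and 1.91 for the genes like Ahr and 0.97 and 0.99 for those like Tiparp. Ahrr, Nqo1, Cyp1b1 and Cyp1a1 were below the level used.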

How the data were processed

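The authors deposited 1 table of raw counts per gene symbol for the 6 Smart-seq2 libraries. Reads were placed on mm10 according to the submitters' processing notes; aligner, counter, annotation and strand setting were not given in the sources used here. Groups and replicate numbers came from the sample titles. Counts are reads without molecular identifiers, so intervals and floors cover counting error only. Of 25075 symbols 98.2% were in the GENCODE M21 name table. Analysis used R 4.3.3 with edgeR 4.0.16: filterByExpr (minimum count 10), TMM, glmQLFit (robust) and glmQLFTest on group, two-sided, with Benjamini-Hochberg adjustment over the 15261 genes tested and a threshold of 0.05. CPM uses TMM-scaled totals. The fit was tested on simulated data. Genes with 5 or fewer counts in a group are given as ratios with 95% counting intervals, or as bounds at 3 counts over the group. Ratios within a library were compared by exact permutation. Alternatives were library totals, median-of-ratios factors, panel scaling, DESeq2 1.42.0, limma 3.58.1 voom, no filter, each library left out, Batf-deficient replicates 1 and 2 averaged, and a replicate block. The members and lists were chosen with earlier results of these data known. Beside the members, the text names up to 3 called genes of each list with the lowest p, genes listed in advance (some genes of these lists are not reported here, and were left out of the list counts) and the 2 genes most like each member whose mean log2 CPM was 3 or more. Exceptions are marked.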

Additional observations from a re-analysis of the deposited data

How the results depend on the processing

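Panel scaling reversed the log2 fold changes of Ahr (-0.51), Arnt (-1.28), Ahrr (-0.97) and Tiparp (-1.45); by construction it divides by transcripts that were more abundant in the libraries labelled Batf-deficient. It left 296 genes higher and 13323 lower, against 4612 and 5209 with TMM factors, and library totals left 3048 higher. Nqo1 (-7.21 to -4.56) and Cyp1b1 (-4.33 to -1.67) kept their direction and their edgeR, DESeq2 or limma call in all 14 alternatives, with adjusted p up to 5.92e-05 and 0.0348. In the other 13 alternatives Ahr ran from 1.58 to 2.02, Arnt from 0.81 to 1.44, Ahrr from 1.11 to 1.56 and Tiparp from 0.63 to 1.07. Leaving out each library in turn gave 0.97 to 1.44 for Arnt, and the ratio of Arnt to Ahr ran from -0.94 to -0.46, nearest to 0 without control replicate 3 and farthest without control replicate 1. Of the 7 members, 6 or 7 were called in every alternative, where 8752 to 13619 of all genes tested were called too. Cyp1a1 was the one added where it was tested. The log2 ratio of Cyp1a1 counts ran from -7.71 to -3.85, where the value nearest to 0 is a bound without Batf-deficient replicate 3. Batf-deficient replicates 1 and 2 differed by a mean chi-square of 2.36 per gene, against 14.8 to 24.2 for other pairs of a group, and averaging them changed no call of the 6 members tested and added Cyp1a1 (edgeR adjusted p = 0.0479). Deviations of same-numbered libraries correlated at 0.00449, 0.0209 and 0.0304, and not every library was closest to its own number, so the numbers were not treated as pairs. With the replicate block 9694 genes were called instead of 9821, and Ahr was at 1.96, Cyp1b1 at -1.88 and Nqo1 at -4.73. Low counts limit Cyp1a1 (0 to 88 per library), Cyp1b1 (5 to 79), Ahrr (39 to 117) and, in the libraries labelled Batf-deficient, Nqo1 (4 to 14).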
